A study of Rattus norvegicus with 59 samples.

Results

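The comparison set the amygdala of 12 adult male rats against 4 other brain regions of the same animals: frontal cortex, striatum, hippocampus and nucleus accumbens. Its members were the 12 arrays titled amygdala, of 59 arrays in all. They were chosen by title and not by any measured value. Each amygdala array was set against the mean of the arrays of the other regions that carry the same animal number, with both lines together. Animals 1 to 6 belonged to iP (iP5C in the design text), an inbred line selected to prefer alcohol. Animals 7 to 12 belonged to iNP (iNP1), its inbred non-preferring counterpart. Striatum, hippocampus and accumbens had 6 iP and 6 iNP arrays each, and cortex had 5 iP and 6 iNP arrays. No cortex array of iP animal 6 was used here, so that animal's reference is the mean of 3 regions. Total RNA of each rat was labelled with biotin and hybridised on its own, so 1 array is 1 dissected region of 1 rat. The labels name no drug or alcohol for any rat, and all had been accustomed to handling each day before they were killed. Both lines are inbred, so the animals sample 1 genotype per line.

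The amygdala is a group of nuclei in the temporal lobe that links sensory input to fear, reward and stress responses. Its basolateral nuclei hold glutamate neurons related to those of cortex, and its central and medial nuclei hold mostly GABA neurons related to those of the striatum. It lies at the ventral surface of the brain, under the leptomeninges, the thin fibroblast layers that cover the brain. The same holds for ventral parts of the forebrain near the accumbens. Leptomeningeal fibroblasts make retinoic acid and much of the collagen of the brain's surface. In dissected tissue, fewer cells of a type and less RNA per cell cannot be told apart.

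Signals are intensities on the log2 scale, after signals under 16 were set to 16. A difference is amygdala minus the mean of the other regions, in log2 units, averaged over 12 animals with its SE. Tests were two-sided limma tests over 5244 probe sets with Benjamini-Hochberg adjustment. A probe set was called when its adjusted p was under 0.05 and its difference over 1 in size; for members of gene lists only the adjusted p was used. Levels are compared between regions and never between genes. Counts of amygdala arrays above or below all arrays of the other regions were made for named genes only, many chosen for large differences. The share of all probe sets with such a separation was not counted, so these counts only describe the named genes.

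Not every amygdala array looked like the others. Of the 12 arrays, 9 correlated best with amygdala arrays of other animals, with median correlations from 0.255 to 0.440 over probe sets after each probe set's mean was removed. Amygdala of iP animal 1 correlated at -0.149 with the other amygdala arrays and at 0.181 with cortex. Amygdala of iNP animal 7 correlated at 0.110 with amygdala and 0.147 with accumbens, and that of iNP animal 8 at 0.107 and 0.130. These 3 arrays are kept in the main values, and values without them are given for the leading genes and for the counts of calls and list members that they move. They were singled out because they resemble other regions, so larger differences without them are no independent support. Among the other regions, cortex of iP animal 5 and accumbens of iP animal 4 were nearest amygdala. Across the 59 arrays the median signal lay between 251 and 391. On the cortex array of iP animal 5 the 3′ Gapdh probe set exceeded the 5′ one by 6.14 (log2).

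**Figure D1:**
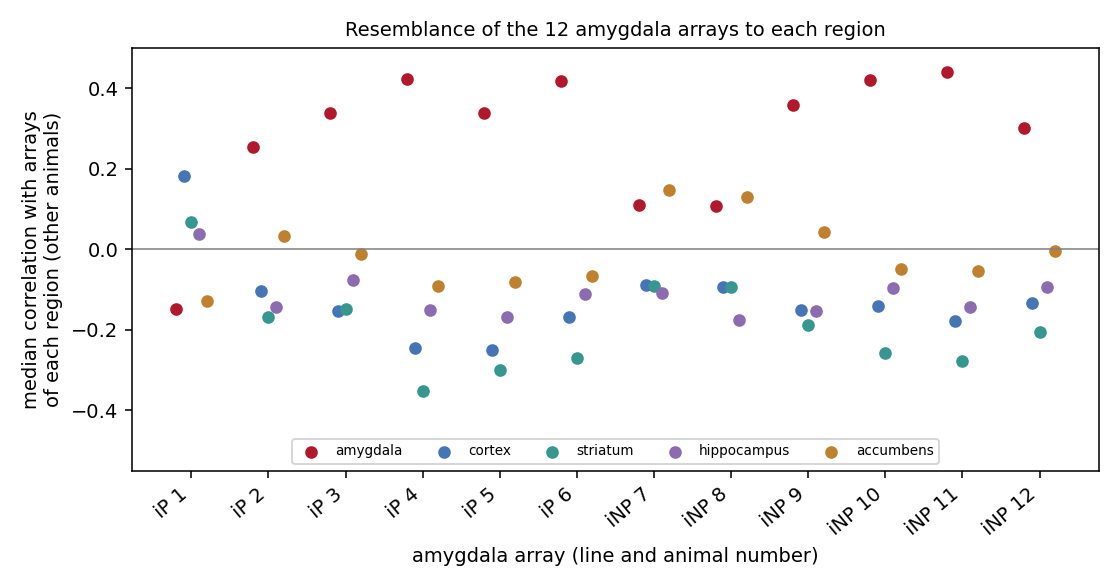
Median correlation of each of the 12 amygdala arrays (x axis, line and animal number) with the arrays of each region from other animals (y axis), 1 coloured point per region. iP 1 has its highest point at cortex (0.181), iNP 7 and iNP 8 at accumbens (0.147 and 0.130), and the other 9 arrays at amygdala (0.255 to 0.440).

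The label was checked against region markers. Of 16 listed markers of amygdala and neighbouring ventral forebrain, 6 are on the array and 3 were bright enough to test. None of these 3 passed: Prkcd, a protein kinase C of central amygdala neurons, differed by 0.08, the stress peptide gene Crh by -0.15 and the cholecystokinin gene Cck by -0.32. Cyp19a1, Esr1 and Nr2f2 were below the filter. With no filter, Nr2f2, a nuclear receptor gene of ventral forebrain, was 1.81 higher (adjusted p = 5.18e-04), at a mean level of 5.61, close to the floor. Against single regions 0 of the 3 testable markers were higher. Lower were 2 against cortex, 1 against striatum, 1 against accumbens and 0 against hippocampus. Without the 3 arrays that resemble other regions, 1 marker was lower against the mean and 1 was higher against hippocampus. None of the 3 markers set the amygdala arrays apart from all other regions by a higher signal. The arrays are described by their leading genes, Aldh1a2, Plagl1, Crabp2 and Gpc3, which come from earlier results of these data.

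Promoters are shown for 4 of the most raised genes. Aldh1a2 and Crabp2 are a synthesis and a carrier gene of the retinoic acid pathway that were also high in accumbens, while Plagl1 and Trim54 were called higher against each of the other regions. The sequences run 5′ to 3′ on the gene's strand, from 250 bases before to 50 bases after the gene's start, and come from RefSeq (build GRCr8). They lie at chr8:80758391-80758690 (Aldh1a2, plus strand), chr2:175714612-175714911 (Crabp2, plus strand), chr1:9297214-9297513 (Plagl1, plus strand) and chr6:30978426-30978725 (Trim54, minus strand). Capitals mark exact matches, on either strand, to the GC box GGGCGG, the CCAAT box CCAAT or the TATA box TATAAA.
Aldh1a2: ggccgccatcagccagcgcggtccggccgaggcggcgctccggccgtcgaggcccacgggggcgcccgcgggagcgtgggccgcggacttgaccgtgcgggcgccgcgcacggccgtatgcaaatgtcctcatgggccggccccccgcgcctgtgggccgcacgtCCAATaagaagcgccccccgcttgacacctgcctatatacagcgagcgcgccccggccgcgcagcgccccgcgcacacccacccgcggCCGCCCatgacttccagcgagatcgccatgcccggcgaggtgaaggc
Crabp2: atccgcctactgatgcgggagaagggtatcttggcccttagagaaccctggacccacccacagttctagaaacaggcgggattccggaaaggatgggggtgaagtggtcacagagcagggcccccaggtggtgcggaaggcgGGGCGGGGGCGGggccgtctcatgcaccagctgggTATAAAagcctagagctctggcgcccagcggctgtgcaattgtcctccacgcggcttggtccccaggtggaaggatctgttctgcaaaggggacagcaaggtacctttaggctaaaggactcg
Plagl1: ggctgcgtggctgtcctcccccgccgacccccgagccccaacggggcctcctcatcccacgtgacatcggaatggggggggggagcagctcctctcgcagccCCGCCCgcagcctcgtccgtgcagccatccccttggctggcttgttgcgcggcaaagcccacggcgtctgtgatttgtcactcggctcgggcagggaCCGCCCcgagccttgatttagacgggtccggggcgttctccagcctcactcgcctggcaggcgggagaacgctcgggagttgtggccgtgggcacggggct
Trim54: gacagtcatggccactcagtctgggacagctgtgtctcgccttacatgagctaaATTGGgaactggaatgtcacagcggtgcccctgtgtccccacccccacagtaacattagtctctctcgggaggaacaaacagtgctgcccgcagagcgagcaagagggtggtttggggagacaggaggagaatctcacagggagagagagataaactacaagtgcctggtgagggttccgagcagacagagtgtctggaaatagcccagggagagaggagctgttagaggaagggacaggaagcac
The Crabp2 window holds 2 GC boxes and 1 TATA box, that of Plagl1 2 GC boxes, that of Aldh1a2 1 GC box and 1 CCAAT box, and that of Trim54 1 CCAAT box. Gpc3, on chromosome X, has 4 GC boxes in its window. Among 33469 rat promoters of the same length, 33.1% hold GGGCGG, 37.5% CCAAT and 14.2% TATAAA on either strand. AGGTCA, the half-site that retinoic acid receptors share with other nuclear receptors, is in none of these 5 windows and in 16.2% of all promoters. Matches to different motifs did not overlap in these windows, and no match says only that these letters are absent from the window.

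Against the mean of the other regions, 80 probe sets were called in amygdala (1.53% of 5244). Of these, 37 were higher (0.706% of 5244) and 43 lower (0.82%). Without amygdala of animals 1, 7 and 8 there were 142 calls (2.71%), 44 higher (0.839%) and 98 lower (1.87%), and 78 were shared with the first set. At the adjusted p alone, 710 probe sets were higher (13.5%) and 665 lower (12.7%), together 26.2%. The most raised genes were Aldh1a2, Plagl1, Trim54, Crabp2 and Gpc3, by 1.52 to 1.86. The most lowered brightest probe sets belonged to Gpam, Fgfr2, Map1b and Il1rap, by 1.33 to 1.74 in size.

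Plagl1 encodes an imprinted zinc finger transcription factor that restrains cell growth. Its signal was 8.22 at the lowest, 10.60 at the median and 11.02 at the highest in amygdala. Hippocampus ran from 8.69 through 9.01 to 10.19, accumbens from 8.84 through 9.17 to 9.38, striatum from 7.57 through 8.18 to 8.60 and cortex from 7.85 through 8.12 to 8.58. Amygdala was the highest region, and 9 of its 12 arrays lay above all 47 arrays of the other regions. The array of iP animal 1, at 8.22, lay within the range of cortex. The difference was 1.71 ± 0.19 (SE, n = 12 animals; adjusted p = 1.36e-05), a 3.27-fold higher signal, and was positive in 11 of 12 animals. By region it was 2.14 against cortex, 2.22 against striatum, 1.25 against hippocampus and 1.20 against accumbens. Without the 3 arrays it was 2.03.

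Trim54 encodes a ring finger protein known from striated muscle, where it binds microtubules and the sarcomere. In amygdala its signal ran from 9.91 through a median of 10.93 to 11.17. In the other regions the medians were 9.74 in cortex, 9.45 in striatum, 9.38 in accumbens and 8.11 in hippocampus, and the highest single array reached 10.15. So 11 of 12 amygdala arrays lay above all 47 others, the exception being iP animal 1. The difference was 1.68 ± 0.13 (n = 12; adjusted p = 8.53e-07), positive in 12 of 12 animals, and 1.87 without the 3 arrays. Plagl1 and Trim54 were the 2 probe sets called higher against each of the 4 regions (0.0381% of 5244). Without the 3 arrays there were 7 (0.133%), adding Hpcal1, Hspa2, Pnck and 2 probe sets of Zfp423.

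Of 21 listed genes of skeletal and cardiac muscle, 18 are on the array and 9 were tested. Higher were Trim54, the troponin T gene Tnnt2 (1.33 ± 0.15) and the skeletal actin gene Acta1 (0.33), against a background of 14.7% of the 3174 genes tested on their brightest probe set higher and 11.7% lower. The Tnnt2 difference was 0.18 against accumbens and from 1.13 to 2.14 against the other regions. The fast troponin C gene Tnnc2 was lower by 0.94 in size, a difference that reached -2.19 against cortex. The median of the 9 was 0.09, beside 0.02 over all tested genes. With no filter 3 of 18 were higher and 2 lower, with a median of -0.04. The tested muscle myosin genes (Myh1, Myh3, Myh7 and Myl1) did not pass, with differences from -0.04 to 0.12. Of those below the filter, Myh2 was lower with no filter (-0.83, limma adjusted p = 0.0034) at a mean level of 5.22. Myh4 (-0.05) and Myh6 (-0.31) did not pass. The defining muscle genes Ckm, Des, Myog and Actc1 were below the filter.

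Hpcal1 encodes a calcium sensor of the hippocalcin family. Its signal in amygdala was 9.37 at the lowest, 11.02 at the median and 11.32 at the highest, while the highest of the 47 other arrays was 10.18. All amygdala arrays but that of iP animal 1 lay above every other array. The difference was 1.42 ± 0.13 (adjusted p = 2.12e-06), at 0.95 against accumbens and from 1.40 to 1.67 against the other regions. Its relative Hpca (hippocalcin), abundant in hippocampus, went the other way. Hpca fell by 1.03 ± 0.09 against the mean of the others, and 10 of 12 amygdala arrays lay below all 47. Among 13 tested calcium-binding protein genes 4 were higher and 2 lower, beside 14.7% higher and 11.7% lower among the 3174 tested genes. The counts were 4 and 5 without the 3 arrays (background 19.3% and 16.1%). The median was -0.01 in both, and 0.03 with median scaling.

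Camk2d, a calcium and calmodulin dependent kinase subunit, and Hspa2, a heat shock protein of the Hsp70 family, shared this pattern of separation. For each, on its brightest probe set, 11 of 12 amygdala arrays lay above all arrays of the other regions, and iP animal 1 was the exception. Camk2d ran from 10.50 through 12.52 to 12.71 in amygdala, against medians of 11.79 in accumbens, 11.14 in striatum, 11.12 in cortex and 10.62 in hippocampus. Its difference was 1.25 ± 0.14. Dimmer Camk2d probe sets were higher by 0.40, 0.46 and 0.67, and on each of them amygdala signals overlapped those of accumbens. Hspa2 ran from 8.14 through 9.00 to 9.65 in amygdala, against medians from 7.50 in cortex to 8.19 in hippocampus. Its difference was 1.14 ± 0.13, at 0.89 to 1.40 against single regions. Ptpro, a receptor tyrosine phosphatase, differed by 1.42 ± 0.15 from the mean of the others but by 0.05 from accumbens (adjusted p = 0.87), where its median was 11.39 beside 11.59 in amygdala.

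Gpc3 is a glypican, a heparan sulfate proteoglycan anchored at the cell surface. Its signal ran from 7.61 through 9.50 to 10.14 in amygdala, while the medians were 8.68 in accumbens, 7.98 in hippocampus, 7.77 in striatum and 6.81 in cortex. Of the 12 amygdala arrays 8 lay above all others. The difference was 1.52 ± 0.19 (adjusted p = 3.84e-05) against the mean, and 0.56 against accumbens (adjusted p = 0.0596), which passed without the 3 arrays (0.83, adjusted p = 0.00189). Of 24 listed glypicans, syndecans and matrix proteoglycans 14 were tested. Higher were 7 of them, lower 0, with a median of 0.23, beside 14.7% higher among all tested genes, and apart from Gpc3 these lay between 0.23 and 0.50. Gpc3 came from earlier results of these data, so its place in the count was known beforehand. With no filter 7 of 21 were higher and 1 lower (Gpc2, -0.67), with a median of 0.11. Gpc1 (-0.12) and Sdc3 (-0.05) did not pass.

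**Figure D2:**
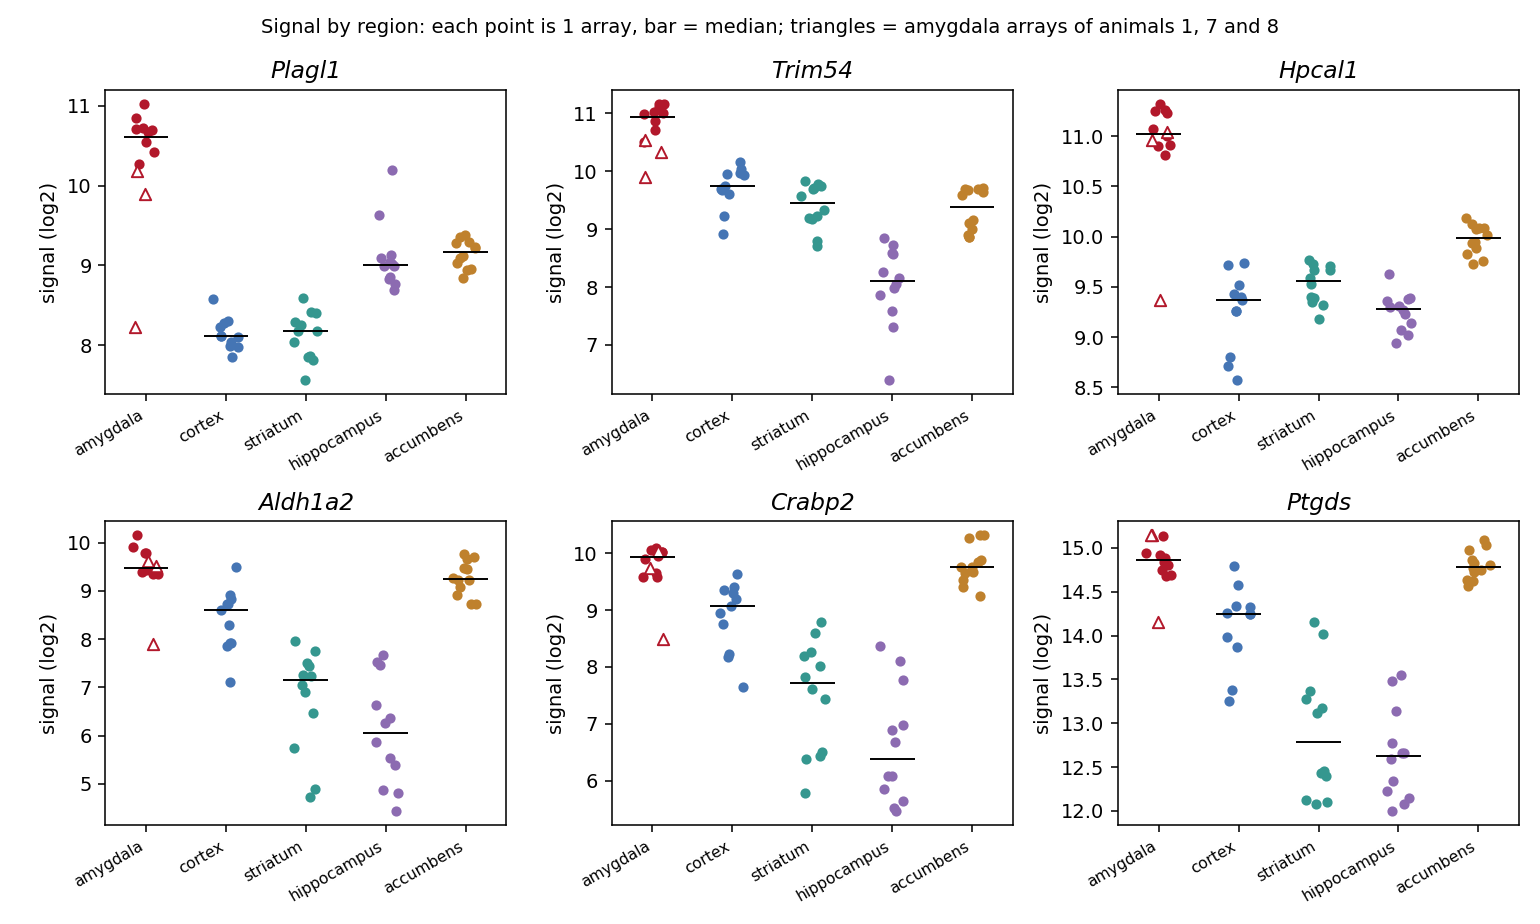
Signal (log2, y axis) of 6 genes in each of the 59 arrays by region (x axis, amygdala leftmost), with medians as bars and the amygdala arrays of animals 1, 7 and 8 as open triangles. Plagl1, Trim54 and Hpcal1 (upper row) stand higher in amygdala than in every other region, with medians of 10.60, 10.93 and 11.02, while Aldh1a2, Crabp2 and Ptgds (lower row) have medians of 9.47, 9.93 and 14.86 in amygdala and 9.25, 9.76 and 14.79 in accumbens.

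Aldh1a2, the retinaldehyde dehydrogenase that makes retinoic acid, showed the largest rise among brightest probe sets. Its signal was 7.89 at the lowest, 9.47 at the median and 10.15 at the highest in amygdala. Accumbens ran from 8.73 through 9.25 to 9.76, cortex from 7.11 through 8.60 to 9.50, striatum from 4.73 through 7.14 to 7.96 and hippocampus from 4.43 through 6.06 to 7.66. Amygdala and accumbens overlapped, and 4 amygdala arrays lay above all 47 others. The difference from the mean was 1.86 ± 0.14 (adjusted p = 8.53e-07), a 3.63-fold higher signal, positive in 12 of 12 animals. Against single regions it was 1.03 for cortex, 2.72 for striatum and 3.39 for hippocampus, but 0.19 for accumbens (adjusted p = 0.399).

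Crabp2, the carrier that brings retinoic acid to its nuclear receptor, followed the same order of regions. It ran from 8.49 through 9.93 to 10.10 in amygdala, with medians of 9.76 in accumbens, 9.08 in cortex, 7.72 in striatum and 6.38 in hippocampus. The difference was 1.58 ± 0.15 against the mean and -0.04 against accumbens (adjusted p = 0.87). No amygdala array lay above all others. Of 8 tested genes of retinoid synthesis, binding and reception 4 were higher and none lower, with a median of 0.22, beside 14.7% higher and 11.7% lower among all tested genes. Of the 4, Aldh1a2 and Crabp2 came from earlier results of these data, so their place in the count was known beforehand. Leaving out the 3 arrays gave 4 higher and 1 lower. With no filter 4 of 13 were higher and 2 lower, with a median of -0.04. The 2 lower genes were dim, the receptor gene Rarb (-1.23) and the retinol dehydrogenase gene Rdh10 (-0.66). The other 2 higher genes were the plasma retinol carrier Rbp4 (0.97) and the dehydrogenase Aldh1a1 (0.42). The receptor genes Rara (-0.19), Rxrb (-0.13) and Rxrg (0.02) did not pass on their brightest probe sets, nor did Crabp1 (-0.36). A dimmer Rara probe set of the same record did pass as lower (-0.53, limma adjusted p = 0.0154).

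Aldh1a2 and Crabp2 also belong to a list of leptomeningeal fibroblast genes, and most of that list rose against the mean. Of 28 listed genes 22 are on the array and 18 were tested, and 17 of the 18 were higher and 0 lower, beside 14.7% higher among all tested genes. Their median was 0.88, beside 0.02 over all tested genes. Aldh1a2 and Crabp2 are among the 17 and came from earlier results of these data, so their place in the count was known beforehand. Without the 3 arrays 16 were higher, with a median of 0.89 (background 19.3% higher, 16.1% lower). The 4 dim members were Lum, Slc13a3, Foxd1 and Lama1. With these included 18 of 22 were higher, with a median of 0.68, so not all members of the list moved. Over all 4736 genes with no filter 462 were higher and 387 lower.

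Among the transporters of this layer, the organic anion transporter gene Slc22a6 was higher by 1.42 ± 0.14 and the GABA and taurine transporter gene Slc6a13 by 1.10 ± 0.13. Ptgds, prostaglandin D synthase, ran from 14.16 through 14.86 to 15.15 in amygdala, against medians of 14.79 in accumbens, 14.25 in cortex, 12.78 in striatum and 12.63 in hippocampus. Its difference was 1.24 ± 0.10. The growth factor gene Igf2 was higher by 1.14 ± 0.12 and its binding protein gene Igfbp2 by 1.00. Of the collagens, Col1a1 rose by 1.14 ± 0.17 on its brightest probe set and Col1a2 by 1.02. Dimmer Col1a1 probe sets differed by 0.69, 0.62 and 0.24, and the last of these did not pass. Probe sets also disagreed for Col3a1, whose brightest differed by 0.21 and did not pass while a dimmer one was higher by 1.13. They disagreed in size for the matrix proteoglycan gene Fmod, which was higher by 0.44 on its brightest probe set and by 1.83 on a dimmer one. Smaller rises were seen in the matrix genes Dcn (0.50), Bgn (0.37), Fn1 (0.35) and Mgp (0.25). Lgals1, a galectin outside the list that fibroblasts and other cells make, was higher by 1.16 ± 0.26, at -0.05 against accumbens.

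The values differed with the region amygdala was set against. Against striatum 17 of the 18 were higher with a median of 1.46 (background 13.2% higher), against hippocampus 17 with a median of 1.55 (13%) and against cortex 12 with a median of 0.55 (11.8%). Against accumbens none was higher and 3 were lower (background 9.17% higher, 10.9% lower), with a median of -0.18. These 4 comparisons share the amygdala arrays. The summed signal of the 18 genes ran from 31750 through 54337 to 63332 in amygdala. It ran from 45495 through 53864 to 64023 in accumbens, from 20090 through 35605 to 53026 in cortex, from 11114 through 15771 to 29857 in striatum and from 11121 through 14184 to 28725 in hippocampus. Amygdala and accumbens overlapped, with amygdala reaching lower, and neither overlapped striatum or hippocampus. Amygdala ran from 43486 to 58034 without the 3 arrays. Within amygdala the lowest sum was that of iP animal 1 and the highest were those of iNP animals 7 (63332) and 8 (62632). The part of leptomeningeal tissue in the rises of Aldh1a2 and Crabp2 was not tested.

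**Figure D3:**
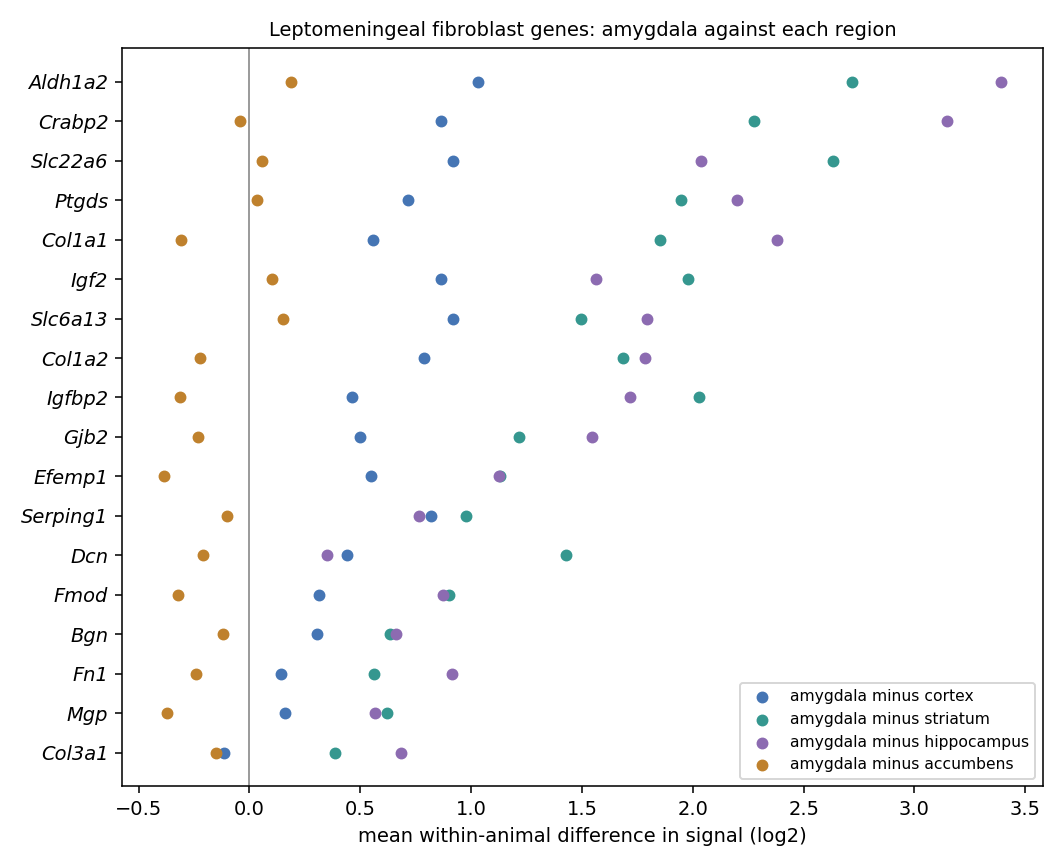
Mean within-animal difference in signal (log2, x axis) of 18 leptomeningeal fibroblast genes (y axis, ordered by their difference from the mean of the other regions), amygdala minus each of 4 regions in a colour of its own. The striatum and hippocampus points lie farthest to the right, with medians of 1.46 and 1.55, the cortex points lie between (0.55), and the accumbens points gather near 0 (median -0.18).

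Imprinted genes are expressed from 1 parental copy and act in growth and hypothalamic function. Of 8 tested members 6 were higher and 0 lower, with a median of 0.56, beside 14.7% higher among all tested genes, and 7 were higher without the 3 arrays (background 19.3%). With no filter 6 of 11 were higher, with a median of 0.26, and the 3 dim members H19 (-0.31), Cdkn1c (-0.21) and Calcr (-0.59) did not pass. Nnat (neuronatin, a small membrane protein of the endoplasmic reticulum) ran from 11.38 through 13.25 to 13.59 in amygdala. The medians elsewhere were 12.81 in accumbens, 12.38 in hippocampus, 11.77 in striatum and 11.23 in cortex. Of the 12 amygdala arrays 8 lay above all others, and the difference was 1.05 ± 0.16. The receptor gene Igf2r, which clears Igf2, was higher by 0.67 and the adaptor gene Grb10 by 0.45. Ndn (necdin) was higher by 0.26. Dlk1 (0.26) and Gnas (0.15) did not pass on their brightest probe sets. Dimmer Gnas probe sets were higher by 0.19, 0.19 and 0.27, and each of these passed. Igf2 also stands in the leptomeningeal list, and 2 dimmer Igf2 probe sets of another record differed by -0.01 and -0.37 and did not pass. Against accumbens 1 of the 8 was higher, Plagl1 (background 9.17% higher). This gene came from earlier results of these data, so its place in the counts of the list was known beforehand.

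Oligodendrocytes wrap axons in myelin, and their genes were lower in amygdala throughout the list. All 9 members on the array were tested and all 9 fell, beside 11.7% lower among all tested genes, with a median of -0.81. The median was -0.87 without the 3 arrays, again with 9 lower. Mobp, a structural protein of myelin made by oligodendrocytes, ran from 12.73 through 13.04 to 13.77 in amygdala. It had medians of 14.26 in hippocampus, 14.07 in striatum, 13.99 in accumbens and 13.73 in cortex, and 10 of 12 amygdala arrays lay below all 47 others. Mog, a myelin surface glycoprotein, ran from 9.48 through 10.02 to 10.78 in amygdala, against medians from 10.63 in cortex to 11.21 in hippocampus. Its difference was -1.10 ± 0.10 (adjusted p = 1.68e-06), negative in 12 of 12 animals.

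The remaining members of the list fell too. Mag, an adhesion protein of the inner myelin layer, fell by 1.05 ± 0.09 and Mal, a proteolipid, by 0.98. Ugt8, the enzyme that makes the lipid galactocerebroside, fell by 0.81, Cnp by 0.76, Mbp by 0.71 and the connexin gene Gjb1 by 0.64. The transcription factor gene Sox10 fell least, by 0.44. Against accumbens, hippocampus and striatum the medians were -0.88, -0.98 and -0.87, and against cortex the median was -0.49 with 7 of 9 lower (background 8.54%). The summed signal of the 9 genes ran from 36170 through 50032 to 95978 in amygdala, and the top value was that of iP animal 1. Without the 3 arrays the highest was 54903. The sums elsewhere ran from 39260 to 90711 in cortex, 75529 to 103737 in accumbens, 75991 to 114133 in striatum and 88791 to 136873 in hippocampus. Enpp2, a lysophospholipase made by oligodendrocytes and choroid plexus, fell by 0.89, and the choroid plexus gene Ttr by 0.98, which was -4.27 against hippocampus and between -0.20 and 0.54 against the other regions.

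Genes of medium spiny neurons, the GABA projection neurons of striatum and accumbens, placed amygdala between the regions. Of 13 tested members 13 were lower against striatum (median -1.27, background 11.8% lower) and 12 lower against accumbens (median -1.20, background 10.9% lower). Against cortex 8 were higher and 1 lower (median 0.53, background 11.8% higher, 8.54% lower). Against hippocampus 10 were higher and 1 lower (median 0.92, background 13% higher, 9.74% lower). Penk (proenkephalin) ran from 10.35 through 11.37 to 12.34 in amygdala, against medians of 13.26 in striatum, 13.08 in accumbens, 10.23 in cortex and 9.79 in hippocampus. Its difference from the mean was -0.18 and did not pass. Rgs9, a regulator of G protein signals, fell by 1.18 ± 0.37 against the mean, and was -3.61 against striatum and -3.17 against accumbens. Only 8 of 12 animals showed the direction of its mean difference. The summed signal of the 13 genes was highest within amygdala in iNP animals 8 (32830) and 7 (28961), and without the 3 arrays the highest was 26152.

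Among GABA neuron genes 4 were higher and 6 lower, with 1 of 11 not passing, beside 14.7% higher and 11.7% lower among all tested genes. The interneuron and calcium buffer genes Calb1 (0.63), Calb2 (0.49), Reln (0.45) and Sst (0.27) were higher. Calb1 ran from 11.66 through 11.92 to 12.43 in amygdala, with the next median, 11.70, in striatum and the lowest, 11.00, in hippocampus. Lower were the GABA synthesis genes Gad2 (-0.99) and Gad1 (-0.22), the vesicular transporter gene Slc32a1 (-0.37), Dlx5 (-0.63), Npy (-0.19) and Pvalb (-0.82). Pvalb, the calcium buffer of fast-spiking interneurons, ran from 9.52 through 9.76 to 11.40 in amygdala, against medians of 11.64 in cortex, 10.71 in hippocampus, 10.57 in striatum and 10.08 in accumbens. Gad1 and Slc32a1 lay at -0.01 to 0.19 against cortex and hippocampus and at -0.83 and -0.95 against accumbens.

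Of 18 tested glutamate receptor genes 8 were lower and 2 higher, with a median of -0.31, beside 11.7% lower and 14.7% higher among all tested genes. Leaving out the 3 arrays gave 10 lower and 3 higher (background 16.1% and 19.3%). The kainate receptor gene Grik4, high in hippocampus, fell by 1.02 ± 0.14, and 7 of 12 amygdala arrays lay below all others. The metabotropic receptor genes Grm3 (-0.86) and Grm2 (-0.69) and the AMPA receptor gene Gria1 (-0.52) were lower, while Grik2 (0.41) and Grin2d (0.36) were higher. Of 9 tested GABA-A receptor subunit genes 1 was higher (Gabrb2, 0.25) and 1 lower (Gabra5, -0.41), shares near the background. There were 3 higher and 3 lower without the 3 arrays. Among 18 neuropeptide genes 2 were higher (Vgf, 0.32, and Sst) and 6 lower, or 8 lower without the 3 arrays. Cartpt, the gene of the cocaine and amphetamine regulated transcript, was -3.18 against accumbens and -0.93 against the mean. The processing enzyme gene Pcsk2 fell by 0.54 and the dynorphin gene Pdyn by 0.36. Of 13 neuropeptide receptor genes 3 were lower and none higher, with 1 higher under median scaling, and 4 were lower and 2 higher without the 3 arrays. Of 22 monoamine and acetylcholine receptor genes 2 were lower (Htr2a and Adra1b) and none higher, and 7 were lower without the 3 arrays (background 16.1%). With no filter 7 of 33 were lower, among them the dim dopamine receptor genes Drd2 (-1.57) and Drd4 (-1.02) and the serotonin receptor gene Htr1b (-0.69).

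Immediate early genes respond within minutes to neuronal activity. Of 15 tested members 8 were lower and 2 higher, with a median of -0.26, beside 11.7% lower and 14.7% higher among all tested genes. Counts and medians differed by region. Against hippocampus 3 were lower and 4 higher (median 0.12, background 9.74% lower and 13% higher). Against cortex these were 4 and 1 (median -0.20, background 8.54% and 11.8%). Striatum gave 8 and 1 (median -0.47, background 11.8% and 13.2%) and accumbens 8 and 2 (median -0.36, background 10.9% and 9.17%). Arc, which acts at active synapses, ran from 11.27 through 11.43 to 12.54 in amygdala. It had medians of 12.35 in cortex, 12.25 in striatum, 12.04 in accumbens and 11.85 in hippocampus, and 9 of 12 amygdala arrays lay below all others. Nptx2, a secreted pentraxin of excitatory synapses, went the other way. It ran from 10.55 through 11.29 to 11.55 in amygdala and was higher by 0.69.

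**Figure D4:**
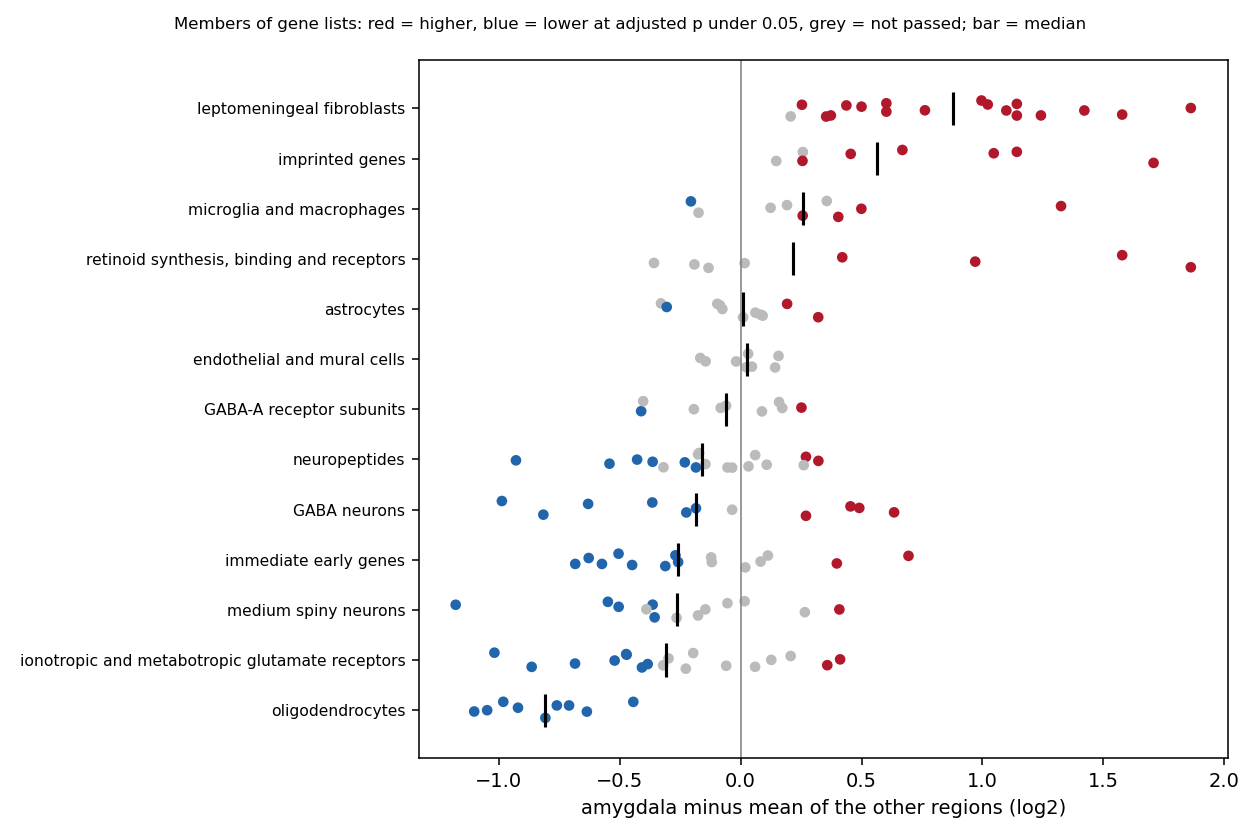
Amygdala minus the mean of the other regions (log2, x axis) for each tested member of 13 gene lists (y axis), 1 point per gene and a bar at the list's median. All 9 oligodendrocyte genes lie left of 0 (median -0.81), the leptomeningeal genes lie right of 0 (median 0.88), and the neuronal lists spread to both sides.

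Lists of other cell types had medians nearer 0. Of 9 tested microglia and macrophage genes 4 were higher and 1 lower, with a median of 0.26, beside 14.7% higher and 11.7% lower among all tested genes. Against accumbens none passed, and without the 3 arrays 6 were higher and 0 lower against the mean. The lower one, Cx3cr1 (-0.21), did not pass under median scaling or quantile normalization, where 5 were higher. Cd74, the invariant chain of antigen presentation, was higher by 1.33 ± 0.27 against the mean and -0.25 against accumbens, and iP animal 1 stood at -1.68. The lysozyme gene Lyz2 was higher by 0.50, C1qb of the complement cascade by 0.40 and the protease gene Ctss by 0.26. Of 11 astrocyte genes 2 were higher (Apoe, 0.32, and Aldoc, 0.19) and 1 lower (Slc1a2, -0.31), shares near the background, and 3 were higher and 3 lower without the 3 arrays. None of 8 endothelial and mural genes passed, and 1 was higher without the 3 arrays. Of 4 blood cell genes 2 were higher with all arrays (Hbb-b1 and Alas2, both 0.23) and 0 without the 3 arrays.

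Among calls with 1 symbol, the largest falls were on probe sets that were not the brightest of their gene. Lower and higher calls were of similar brightness, with median levels of 8.67 and 8.99. Of 39 lower calls with 1 symbol, 22 were not the brightest probe set of their gene, and 20 of these 22 showed a larger fall than the brightest did. The median was -1.39 for the 22 and -0.51 for the brightest probe sets of the same genes. Among 35 higher calls 10 were not the brightest, with medians of 1.15 and 0.96, and 9 of these 10 showed a larger rise than the brightest did. A call needed a difference over 1 in size, while the brightest probe set of the same gene did not. This selection favours larger differences on the called probe sets, so these counts and medians are no support for an effect of brightness. Larger falls on dimmer probe sets were most marked for Itpr1, the calcium release channel of the endoplasmic reticulum. This gene and the next ones were chosen after their values were seen. Its brightest probe set ran from 11.29 through 11.48 to 12.47 in amygdala, against medians of 12.66 in striatum, 12.49 in cortex, 12.01 in accumbens and 11.99 in hippocampus, a difference of -0.70 ± 0.08. Its 4 dimmer probe sets differed by -1.64, -1.87, -2.33 and -3.06. The dimmest ran from 4.02 through 4.81 to 8.42 in amygdala, close to the floor of 4.00, and values at the floor have no order. Mag differed by -2.45 on its dimmest probe set and by -0.74 and -1.05 on the others. For Kcnj10, a glial potassium channel, the values were -1.87 and -0.80, and for the adrenergic receptor gene Adra1d -1.72 and -0.20.

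**Figure D5:**
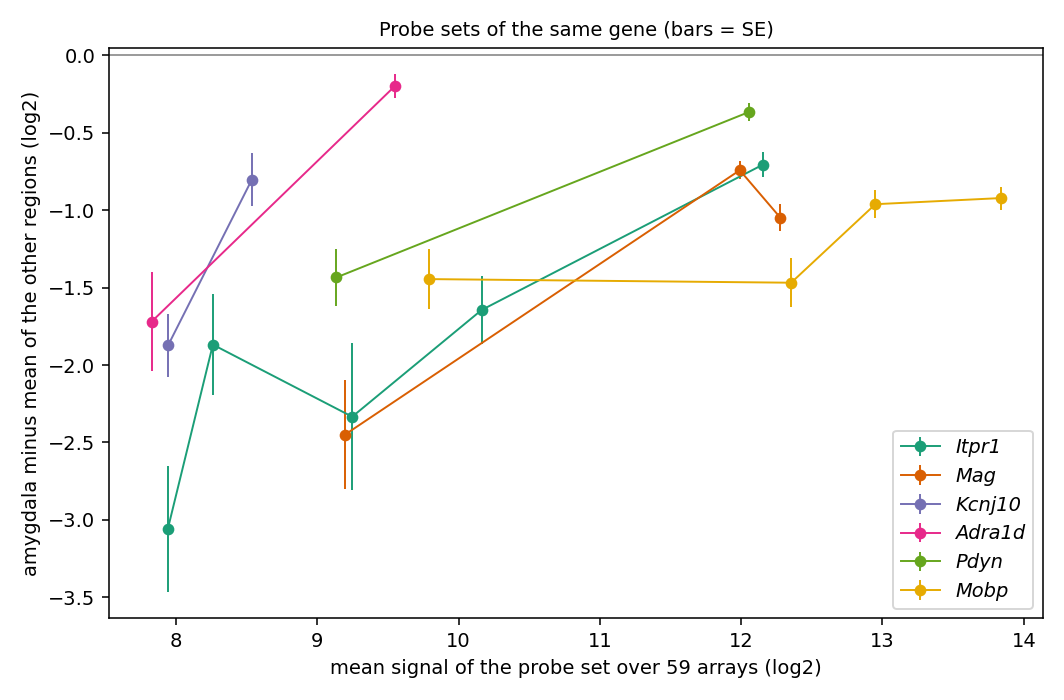
Amygdala minus the mean of the other regions (log2, y axis, bars are SE) against the mean signal over 59 arrays (log2, x axis) for every tested probe set of 6 genes, with probe sets of a gene joined. For Itpr1, Kcnj10, Adra1d, Pdyn and Mobp the brightest probe set shows the smallest fall, for example -0.70 against -3.06 for Itpr1. For Mag the brightest shows -1.05, beside -0.74 and -2.45 on the dimmer ones.

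Lower against each of the 4 regions were 10 probe sets (0.191%), and 20 (0.381%) without the 3 arrays. The 10 were 4 probe sets of Itpr1 and 1 each of Mag, Kcnj10, Gpam, Fgfr2, Frmd5 and Rasgrp1. Gpam, an acyltransferase of glycerolipid synthesis, ran from 6.34 through 7.27 to 10.03 in amygdala, against medians from 9.76 to 10.03 in the other regions. Its amygdala signals were widely spread. They were 10.03, 9.32, 10.00 and 9.64 in animals 1, 2, 7 and 8 and lay between 6.34 and 7.47 in the other 8 animals. The difference was -1.74 ± 0.33 over 12 animals, negative in 9 of them, and -2.34 without the 3 arrays. Fgfr2, a fibroblast growth factor receptor, differed by -1.65 ± 0.29 on its brightest probe set, negative in 12 of 12 animals. Its dimmer probe sets differed by -1.04, -0.72 and -0.47, and the last of these did not pass. For Rasgrp1, an exchange factor for Ras, it was a dimmer probe set that was called against each region; the brightest differed by -1.06 ± 0.12 and lay below all 47 other arrays in 10 of 12 amygdala arrays. The potassium channel subunit gene Kcnab1 fell by 1.17 ± 0.09 and the transcription factor gene Pou3f1 by 1.16 ± 0.11, each negative in 12 of 12 animals.

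RNA quality was compared between amygdala and the other regions through the 3′ to 5′ ratios of control genes. Without animal 5, whose cortex array stands apart, the Gapdh 3′ to 5′ ratio was 0.11 higher in amygdala than in the animal's other regions (log2; n = 11 animals, 9 positive; exact two-sided permutation p = 0.0215, adjusted over 3 measures 0.0322). The beta-actin ratio was 0.14 higher (9 of 11 positive; exact permutation p = 0.0117, adjusted 0.0322) and median signal differed by -9.90 (exact permutation p = 0.0879). Median signal differed by -16.5 without animals 1, 7 and 8 (n = 9; exact permutation p = 0.0117) and by -16.3 without animals 1, 5, 7 and 8 (n = 8; exact permutation p = 0.0234). With all 12 animals the ratios differed by 0.0073 (exact permutation p = 0.984) and 0.07 (exact permutation p = 0.474). This comparison was chosen after seeing the data. The part of RNA quality in the falls on dim probe sets was not tested.

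By region, the calls were 46 higher (0.877%) and 65 lower (1.24%) against cortex, 71 (1.35%) and 98 (1.87%) against striatum, 96 (1.83%) and 77 (1.47%) against hippocampus, and 17 (0.324%) and 65 (1.24%) against accumbens. Without the 3 arrays they were 58 and 104, 88 and 161, 107 and 109, and 26 and 118. Of the 4 leading genes, all 4 were higher against cortex, striatum and hippocampus, and against accumbens Plagl1 alone was with all arrays.

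The last question was whether the amygdala's difference from the other regions differed between the lines. In the limma test of 6 iP against 6 iNP differences 0 of 5244 probe sets passed (0%), and 352 had an unadjusted p under 0.05. Without the 3 arrays 0 passed and 196 had an unadjusted p under 0.05. The smallest p-values belonged to Prp15, a proline-rich protein gene, and Mapkapk2, a kinase of the p38 stress pathway. They were picked by p-value from all 5244 probe sets, so a gap between the lines in their values is no support for a line effect. The Prp15 difference ran from -1.05 to -0.06 in iP animals and from 0.44 to 2.05 in iNP animals. That is -1.48 ± 0.28 for iP minus iNP, with an adjusted p of 0.325. Mapkapk2 ran from -1.62 to -0.06 in iP and from 0.38 to 0.87 in iNP, a line difference of -1.35 ± 0.26 (adjusted p = 0.325). Tom1l2 (0.40) and Hnrnpa1 (0.42) followed and did not pass either. Among the 4 leading genes the line difference was -0.06 ± 0.29 for Aldh1a2 and -0.28 ± 0.39 for Plagl1.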

How the data were processed

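Per the labels, biotin-labelled RNA of each rat was hybridised separately on an Affymetrix rat array. The deposited values are intensity per probe set on a linear scale; per the sources used here, the summarising software is not given. On every array the mean after 2% was trimmed at each end was 1000, so no further scaling was applied. Region, line and animal number came from the titles; the source name gives iNP for all arrays and was not used. Of 8799 probe sets, 59 controls and the 40% with the lowest mean were left out (lowest mean kept: 7.65), leaving 5244. Of 8740, 7006 carry 1 symbol, 308 several and 1426 none; 6985 matched the GRCr8 gene table by gene ID. Signals under the floor of 16 made up 5.54% of all values. Precision is limited by the number of animals.

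Within-animal differences were tested against 0 with limma 3.58.1 (R 4.3.3), with an intensity trend. The fits were tested on simulated data. Animal numbers in the titles were used to pair the arrays. Deviations of amygdala from its region's mean correlated with those of the animal's other regions at 0.216 on average (lowest 0.0533), and at -0.0192 between different animals. Line means were not removed, and arrays of 1 animal share a line. These correlations therefore cannot tell a shared animal from a shared line. RNA quality was tested with exact sign-flip permutation tests. The brightest probe set with 1 symbol stands for a gene. Named are the leading genes, the largest rises and falls, genes called against each region, the leading members of each list and the smallest p-values between lines. Members and lists were chosen with earlier results of these data known. The alternatives were other sets of animals and arrays, floors, filters, scalings, pairings and probe set summaries.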

Additional observations from a re-analysis of the deposited data

Results flagged for a closer look

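In 62 tests of whether 1 of 6 animals of a line lies far from the other 5, 9 single values stood apart. Chance gives about 1 in 20 for a single test, but these tests share arrays and are not independent, so the count is not set against that rate. Of the 9, 7 belong to the amygdala of iP animal 1, the array nearest cortex. Its differences from the animal's other regions were -0.44 for Plagl1, -0.14 for Crabp2, -1.68 for Cd74, -0.079 for Hpcal1, -0.46 for Ptpro, -0.50 for Camk2d and 0.070 for Hspa2, each the lowest of the 6 iP animals. These 7 genes were called higher in amygdala, and this array was already known to resemble cortex. Its low values follow from that and are no independent support. Crabp2 was highest among iNP animals in animal 9, at 2.21. The beta-actin 3′ to 5′ ratio of the iP amygdala arrays was highest in animal 2, at 1.13 (log2).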

How the results depend on the processing

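Against the mean of the other regions 80 probe sets were called. Leaving out 1 animal at a time gave 68 to 104, highest without animal 1. The count was 142 without amygdala of animals 1, 7 and 8, 166 when cortex of animal 5 and accumbens of animal 4 were left out too, 136 with no filter and 36 with 60% of probe sets left out, where fewer were tested. The animal as a fixed replicate block in 1 fit of all arrays gave 79 calls, and 140 without the 3 arrays; no replicate block gave 80. The block changed no call count by over 1.5 times. With no filter the counts were 194 against cortex (111 with the filter), 285 against striatum (169) and 173 against accumbens (82); against accumbens 144 were called without the 3 arrays. Causes were not tested. At the adjusted p alone, median scaling moved the split to 921 higher and 552 lower, beside 710 and 665. Of 86 named genes past the adjusted p, none changed direction in a refit of the comparison; 58 of 1032 leave-one-out cases and 36 of 1085 other cases lost the call. With the mean of all its probe sets Gabrb2 became -0.084. The Gapdh ratio was 0.11 without animal 5, 0.0073 with all animals, 0.0096 without animals 1, 7 and 8 and 0.15 without animals 1, 5, 7 and 8; for beta-actin these were 0.14, 0.07, 0.08 and 0.18, and for median signal -9.90, -10.6, -16.5 and -16.3. These sets of animals were chosen after seeing the data. Signals near the floor carry no order, and values under it are bounds.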

Other observations

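Further genes were higher in amygdala outside the lists. Agt, the angiotensinogen gene that astrocytes express, ran from 11.39 through 12.26 to 12.73 in amygdala, against medians of 11.74 in hippocampus, 11.12 in accumbens, 11.05 in cortex and 10.65 in striatum, and was higher by 1.05 ± 0.10. The cGMP-dependent kinase gene Prkg2 was higher by 1.02 ± 0.08, positive in 12 of 12 animals. The zinc finger gene Zfp423 was higher by 1.04 and 1.27 on 2 probe sets, the sulfotransferase gene Sult1a1 by 1.05 and 1.28, and Hrk, which promotes cell death, by 1.13 and 1.17. The cadherin gene Cdh22 was 1.12 higher on a dimmer probe set and 0.07 on its brightest, where it did not pass.

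Of cortical and hippocampal neuron genes, the differentiation factor gene Neurod1 was higher by 0.68 against the mean, with a median of 9.57 in amygdala, 9.76 in hippocampus and 8.38 to 8.55 in the other regions. Camk2n1, an inhibitor of calcium and calmodulin dependent kinase, was higher by 0.67, at 0.02 against cortex and 1.48 against hippocampus. The ephrin receptor gene Epha7 was lower by 1.02 in size, at -1.94 against hippocampus. These genes were chosen from the calls and lists after their values were seen.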
